A study of Mus musculus with 2 samples.

Results

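The interleukin 1 family is described here through 10 genes out of the 27998 in the count matrices: the agonist cytokines Il1a and Il1b, the antagonist Il1rn, the signalling receptor Il1r1, the decoy receptor Il1r2, the shared co-receptor Il1rap, the cytokine Il33 with its receptor Il1rl1 (also called ST2), the cytokine Il18, and Casp1. They were chosen by name, by a rule that uses no measured value but was set with earlier results of these data known, and all 10 were found in the matrices. The counts came from single-cell RNA sequencing of the tibialis anterior muscle of C57Bl/6 mice after injury with notexin, a snake venom phospholipase that destroys myofibres and spares the satellite cells from which the muscle regrows. One library was made at 2 days and 1 at 7 days after the injury, each from 1 mouse, so no test between the days was possible and no uninjured muscle was analysed here. GEO's labels describe both mice as female and aged 7 months, whereas the deposited cell tables give male mice aged 4 months at day 2 and 7 months at day 7, and the libraries held 6575 and 4856 counts of Y-linked genes against 5 and 1 of Xist. Age and day therefore cannot be told apart if the tables are right.

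Cytokines of this family are alarm signals of damaged tissue. Il1a and Il1b act through Il1r1, which must recruit Il1rap before it can signal through the adaptor Myd88 to NF-kappaB, while Il1rn occupies Il1r1 without recruiting Il1rap and Il1r2 binds the cytokine without a signalling domain. Il33 is stored in the nucleus of stromal cells and signals through Il1rl1 and Il1rap, in regulatory T cells, type 2 innate lymphoid cells, basophils and mast cells among others, and in injured muscle it is known as a product of fibro/adipogenic progenitors (FAPs), the mesenchymal cells between the fibres. Il1b and Il18 are made as precursors that the protease Casp1 cleaves inside inflammasomes, so transcript levels say nothing of how much active cytokine was released.

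Of 3537 barcodes in the deposited cell table of day 2 and 3416 in that of day 7, 3208 and 3221 were kept because they had 750 genes and 1000 transcripts or more and a mitochondrial share no higher than 30%. Their medians were 9010 and 6557 counts per cell. The authors' 25 cell type labels were grouped into 12 classes. The neutrophil label held 708 cells at day 2 and 10 at day 7, monocytes and macrophages 1292 and 757, dendritic cells 170 and 145, T and NK cells 71 and 404, FAPs 215 and 805, endothelial cells 336 and 333, and smooth muscle cells 304 and 232. Each class carried its own markers above every other class, except that FAP markers were higher in tenocytes at day 2 and myogenic markers higher in myofibres at day 7, and that the smooth muscle label carried endothelial markers at 3433 and 5843 CPM, close to the 4282 and 6759 CPM of the endothelial class. CPM is the gene's count per 1000000 counts of the same group of cells. The T and NK class at day 2 held basophil markers at 1601 CPM and mast cell markers at 4097 CPM, against 6.14 and 18.9 CPM at day 7. Free RNA in the suspension was estimated from barcodes with 1 to 100 counts, in which Il1b stood at 620 CPM at day 2 and 138 CPM at day 7, and Il1rn at 290 and 37.5 CPM. Brackets give 95% intervals that cover counting error only, not the spread between mice.

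The 10 genes lie on 5 chromosomes of the mouse genome (GRCm38), and 5 of them lie in just 2 stretches. Il1a (chr2:129299610-129309972, minus strand) and Il1b (chr2:129364570-129371139, minus strand) are neighbours, and Il1r2 (chr1:40074079-40125231), Il1r1 (chr1:40225080-40317257) and Il1rl1 (chr1:40429570-40465415) follow one another on the plus strand of chromosome 1. Il1rn (chr2:24336853-24351494) lies on the same chromosome as the agonists but far from them, Il1rap on chromosome 16 (chr16:26581704-26730117), Il33 on chromosome 19 (chr19:29925114-29960718), and Il18 (chr9:50554827-50581840) and Casp1 (chr9:5298517-5307265) on chromosome 9. All are protein coding.

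The 250 bases before the annotated start sites are shown for the genes on which the results below turn: the agonist pair and the antagonist, whose levels followed one another over the cell types, and Il33 and its receptor, which did not. The sequences are RefSeq's on GRCm38.p6, read 5′ to 3′ towards the start site, which follows the last base. Capitals mark matches, on either strand, of the TATA box (letters TATAAA), of AP-1 (letters TGANTCA), of C/EBP (letters TTGNNNAA), of NF-kappaB (GGG, any 5 bases, then CC) and of the GATA factors (letters GATAAG). No marked matches overlapped in the windows printed.
Il1a, chr2:129309973-129310222, minus strand: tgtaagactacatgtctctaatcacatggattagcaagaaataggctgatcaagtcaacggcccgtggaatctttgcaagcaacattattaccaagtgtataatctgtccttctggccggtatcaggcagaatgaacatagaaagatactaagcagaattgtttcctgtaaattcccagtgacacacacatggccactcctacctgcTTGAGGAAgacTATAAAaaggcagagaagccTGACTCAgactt
Il1b, chr2:129371140-129371389, minus strand: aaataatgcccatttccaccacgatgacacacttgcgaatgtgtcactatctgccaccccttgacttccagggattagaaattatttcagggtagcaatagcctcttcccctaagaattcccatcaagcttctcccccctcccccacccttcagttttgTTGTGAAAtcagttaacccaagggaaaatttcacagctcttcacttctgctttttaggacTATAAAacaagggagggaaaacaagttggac
Il1rn, upstream start, chr2:24336610-24336859, plus strand: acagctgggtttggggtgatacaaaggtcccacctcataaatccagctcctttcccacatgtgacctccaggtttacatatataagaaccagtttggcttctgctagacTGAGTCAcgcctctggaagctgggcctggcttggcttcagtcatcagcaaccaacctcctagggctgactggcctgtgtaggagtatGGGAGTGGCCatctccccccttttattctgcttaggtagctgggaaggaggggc
Il33, downstream start, chr19:29945540-29945789, plus strand: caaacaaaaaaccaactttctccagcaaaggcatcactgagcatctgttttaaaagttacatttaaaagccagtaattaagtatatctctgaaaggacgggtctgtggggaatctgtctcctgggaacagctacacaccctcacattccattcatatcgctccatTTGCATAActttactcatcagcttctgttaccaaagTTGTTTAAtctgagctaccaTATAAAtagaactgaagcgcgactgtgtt
Il1rl1, distal start, chr1:40429320-40429569, plus strand: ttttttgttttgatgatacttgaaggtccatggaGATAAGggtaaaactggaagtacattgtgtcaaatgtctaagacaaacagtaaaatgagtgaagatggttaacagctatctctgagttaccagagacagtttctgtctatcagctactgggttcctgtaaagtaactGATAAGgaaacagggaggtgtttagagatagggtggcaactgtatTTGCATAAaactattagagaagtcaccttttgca
Il1rl1, proximal start, chr1:40439379-40439628, plus strand: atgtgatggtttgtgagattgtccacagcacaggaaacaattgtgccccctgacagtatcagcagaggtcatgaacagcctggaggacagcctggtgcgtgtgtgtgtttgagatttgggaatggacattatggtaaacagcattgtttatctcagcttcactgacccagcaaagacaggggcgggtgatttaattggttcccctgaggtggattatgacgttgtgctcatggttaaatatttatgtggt
Il1a and Il1b each held a TATA box match whose first base lay 32 and 31 bases before the start site, and the downstream start of Il33 one at 29 bases. Of all 32851 mouse promoter windows of the same length, 12.4% held TATAAA. Il1a also held an AP-1 match (TGACTCA) 12 bases before the start and Il1rn another (TGAGTCA) 141 bases before it, against 6.75% of all windows. The C/EBP letters, present in 33.3% of windows, matched in the windows shown of Il1a, Il1b, Il33 and the distal start of Il1rl1, and the NF-kappaB letters, present in 45.8%, in that of Il1rn. Of the start sites annotated for these genes, 2 of Il1rn and 1 of Il33 are not shown. Both of those Il1rn windows, which overlap, held the C/EBP letters and 1 of them the NF-kappaB letters, and that of Il33 held TATAAA at 203 bases. The distal start of Il1rl1 held GATAAG 216 and 79 bases before the start, against 6.55% of windows, and its proximal start held none of the 5 motifs. These are matches of letters only, and counts from the 3′ ends of transcripts cannot tell which start a cell used.

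Il1b had the most counts of the members at both times, and at day 2 its level was highest in neutrophils. In all kept cells it stood at 982 CPM at day 2 and 155 CPM at day 7. The 708 neutrophils held 15216 of the 33515 Il1b counts in classified cells at day 2, a level of 7812 CPM [7688, 7937]. It was found in 655 of them (92.5%, or 89.2% of 537 cells thinned to 2000 counts each, with 171 shallower cells left out), at a median of 13 and a maximum of 201 counts per cell, and 114 cells held 50% of the counts. Of thinned FAPs, 5.16% held it. Among the other myeloid labels dendritic cells came next at 2145 CPM, followed by inflammatory monocytes at 1708 CPM and the macrophages labelled M2 Cx3cr1_hi at 1029 CPM. The intervals of these 4 labels did not overlap one another. Neutrophils were shallow cells, and only 28 of the 708 passed stricter limits (1500 genes, 3000 transcripts and 15% mitochondrial counts), in which Il1b stood at 2644 CPM.

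At day 7 the order among myeloid cells was different. The M2 Cx3cr1_hi macrophages were highest of the labels with at least 20 cells, at 835 CPM [785, 888], followed by dendritic cells at 649 CPM, inflammatory monocytes at 503 CPM and M1 macrophages at 453 CPM, the last pair with overlapping intervals. The Il1b level of M2 Cx3cr1_hi macrophages differed least between the days (log2 ratio of day 7 to day 2 of -0.30 [-0.43, -0.17]), and those of inflammatory monocytes (-1.76 [-1.94, -1.59]) and dendritic cells (-1.72 [-1.84, -1.61]) differed most among myeloid labels with 50 cells at both times. Monocytes and macrophages together went from 777 to 447 CPM (-0.80 [-0.85, -0.74]), less than the 2-fold that is used below as the mark of a clear difference. They held 38.2% of all Il1b counts at day 2 and 78.7% at day 7, when the neutrophil label held 10 cells. Of those 10, only 1 had 3 or more counts of neutrophil markers, and that cell held 33 of their 63 Il1b counts, so no neutrophil level is given at day 7.

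**Figure D1:**
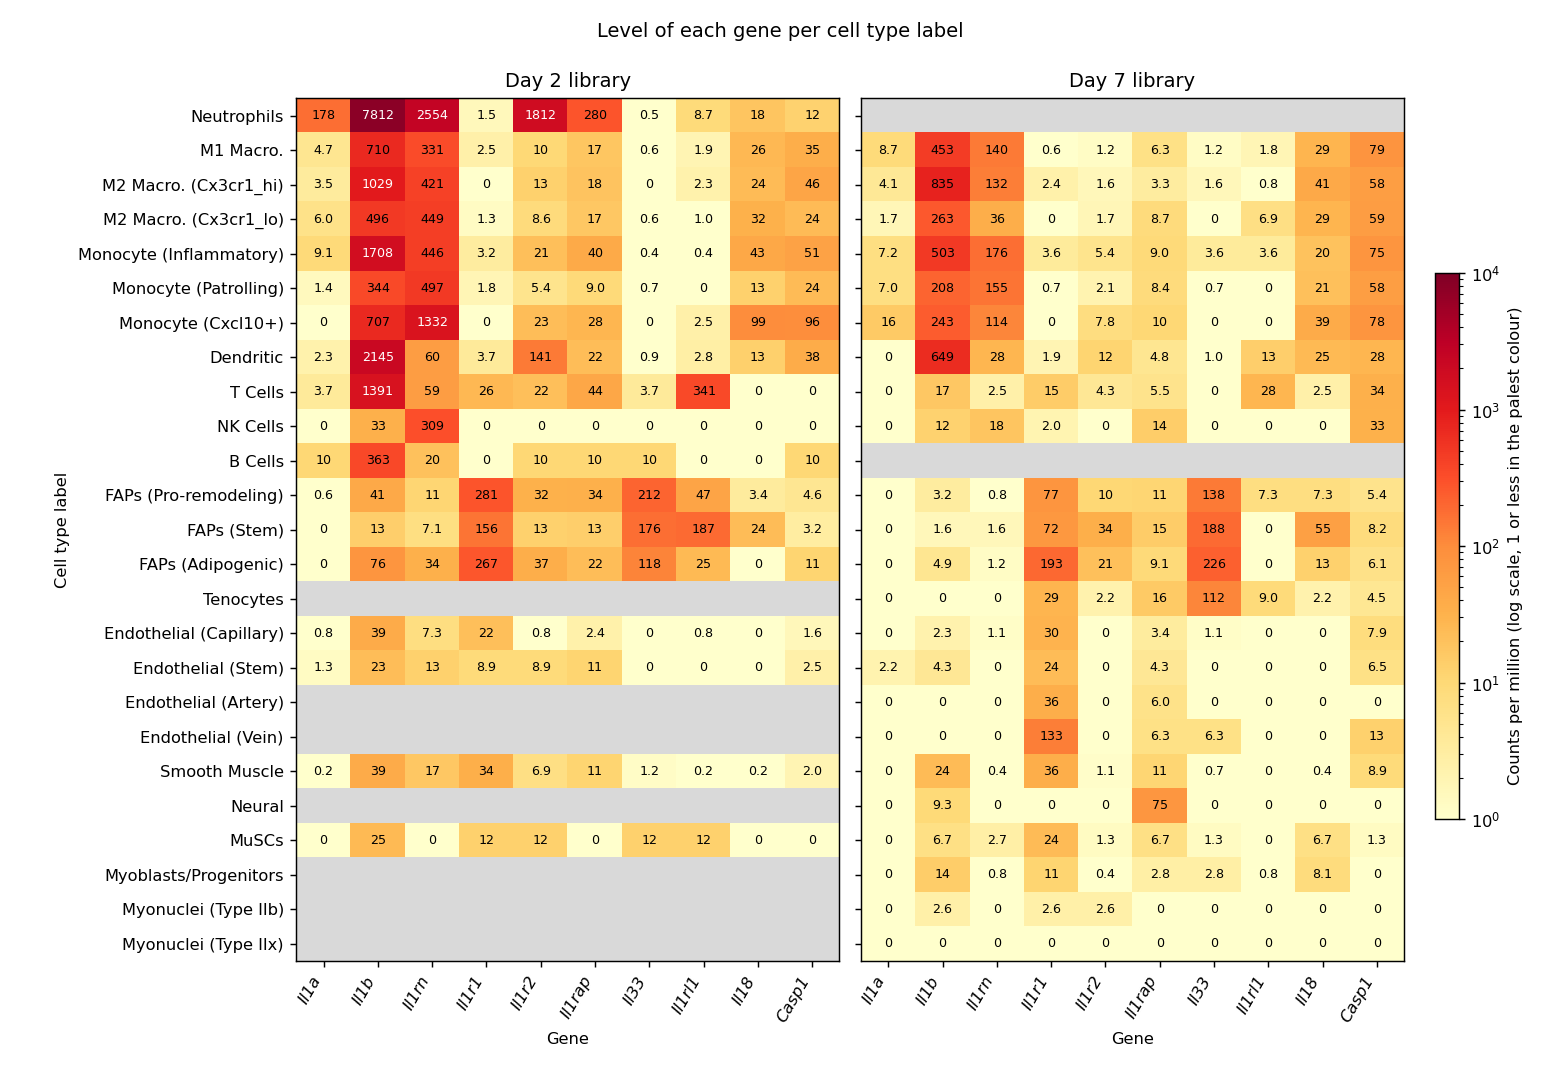
Level of each of the 10 genes (columns) in each cell type label (rows) at day 2 and day 7, as log-scaled CPM of summed counts, with labels of under 20 cells left blank. Il1b, Il1rn, Il1r2 and Il1rap are darkest in neutrophils at day 2, where Il1b reaches 7812 CPM, whereas Il33 is darkest in the FAP labels at both times. Il1r1 is darkest in the 3 FAP labels at day 2 and in adipogenic FAPs at day 7, followed by endothelial cells of the vein label (133 CPM).

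Some Il1b outside myeloid cells could be traced to particular cells. The T cell label at day 2 stood at 1391 CPM, but 367 of its 379 counts came from the 18 of 50 cells that held 3 or more basophil or mast cell marker counts, a level of 4242 CPM [3819, 4699] there. The 30 T-labelled cells with under 3 counts of basophil, mast and neutrophil markers held 4 Il1b counts (22.0 CPM). All T-labelled cells of day 7 stood at 16.6 CPM. B cells at day 2 held 36 counts in 3 of 29 cells, beside neutrophil markers at 3888 CPM, and stood at 21.1 CPM without the highest cell. FAPs, endothelial cells and smooth muscle cells had similar low levels at day 2, of 36.8, 29.3 and 39.0 CPM, and FAPs and endothelial cells stood at 3.44 and 2.38 CPM at day 7. They lay far under the free RNA level of 620 CPM, which was lower at day 7 too, and with SoupX values, the authors' correction for free RNA, the day 2 levels were 25.9 CPM rather than 41.3 in pro-remodeling FAPs, 22.3 rather than 38.8 in capillary endothelial cells and 21.5 rather than 39.0 in smooth muscle cells. In smooth muscle cells at day 7, 59 of the 65 Il1b counts sat in 1 cell with neutrophil markers, and the level without it was 2.22 CPM rather than 24.0 CPM.

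Il1a had far fewer counts than Il1b, and a larger share of them came from neutrophils. At day 2 the neutrophils held 346 of 439 Il1a counts (78.8% [74.7, 82.5]), at 178 CPM [159, 197] (52.0 CPM in the 28 cells under stricter limits) and in 133 of 708 cells, and 125 of those 133 cells also held Il1b. Monocytes and macrophages stood at 4.91 CPM at day 2 and at 7.31 CPM at day 7 (0.57 [0.05, 1.09]). Free RNA held Il1a at 7.20 and 2.82 CPM, or at 3.65 and 7.22 CPM in barcodes with 1 to 10 counts. How much of the level in these cells came from free RNA was not tested. At day 7 only 60 Il1a counts were left, of which 55 came from monocytes and macrophages. So the agonist transcripts differed in their cells, with 45.4% of Il1b but 78.8% of Il1a counts in neutrophils at day 2.

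Il1rn, the antagonist, was found in the same classes as Il1b, in other proportions. In all kept cells it stood at 366 CPM at day 2 and 39.0 CPM at day 7. Neutrophils were highest at day 2 (4975 counts, 2554 CPM [2484, 2626]), followed by monocytes labelled Cxcl10+ at 1332 CPM in 38 cells and patrolling monocytes at 497 CPM. Under the stricter limits this order turned, with 908 CPM in 28 neutrophils and 1331 CPM in 37 Cxcl10+ monocytes. The other macrophage and monocyte labels lay between 331 and 449 CPM, and dendritic cells stood at 59.6 CPM. Monocytes and macrophages as a class held more Il1rn counts (57.0%) than neutrophils (40.2%) at day 2, and 94.2% of them at day 7.

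Between the days, Il1rn differed more than Il1b in this class. Its level went from 428 to 135 CPM (log2 ratio -1.66 [-1.76, -1.57]). It was lower at day 7 in each label with 50 cells at both times, from -1.24 in M1 macrophages to -3.63 [-4.32, -3.01] in the M2 Cx3cr1_lo macrophages, where it went from 449 to 36.3 CPM. The 4 highest labels at day 7, inflammatory monocytes (176 CPM), patrolling monocytes (155 CPM), M1 macrophages (140 CPM) and M2 Cx3cr1_hi macrophages (132 CPM), did not differ from their neighbours in this order beyond the counting intervals.

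The ratio of Il1rn to Il1b counts ranged widely over the myeloid labels. At day 2 it was 0.0278 [0.0231, 0.0331] in dendritic cells, 0.261 in inflammatory monocytes, 0.327 [0.317, 0.338] in neutrophils and 0.465 in M1 macrophages. It was 0.905 in M2 Cx3cr1_lo macrophages, and above 1 only in patrolling monocytes (1.44 [1.33, 1.57]) and Cxcl10+ monocytes (1.89 [1.63, 2.19]). Dendritic cells thus had the second highest Il1b level of all labels with few counts of the antagonist, and 95 of 170 dendritic cells held Il1b without Il1rn. For monocytes and macrophages the ratio was 0.551 [0.535, 0.567] at day 2 and 0.302 [0.281, 0.324] at day 7. At day 7 patrolling monocytes were highest, at 0.745, and M2 Cx3cr1_lo macrophages stood at 0.138 [0.083, 0.219]. A ratio of counts of 2 genes is not a ratio of molecules, and only its differences between cells are read here.

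**Figure D2:**
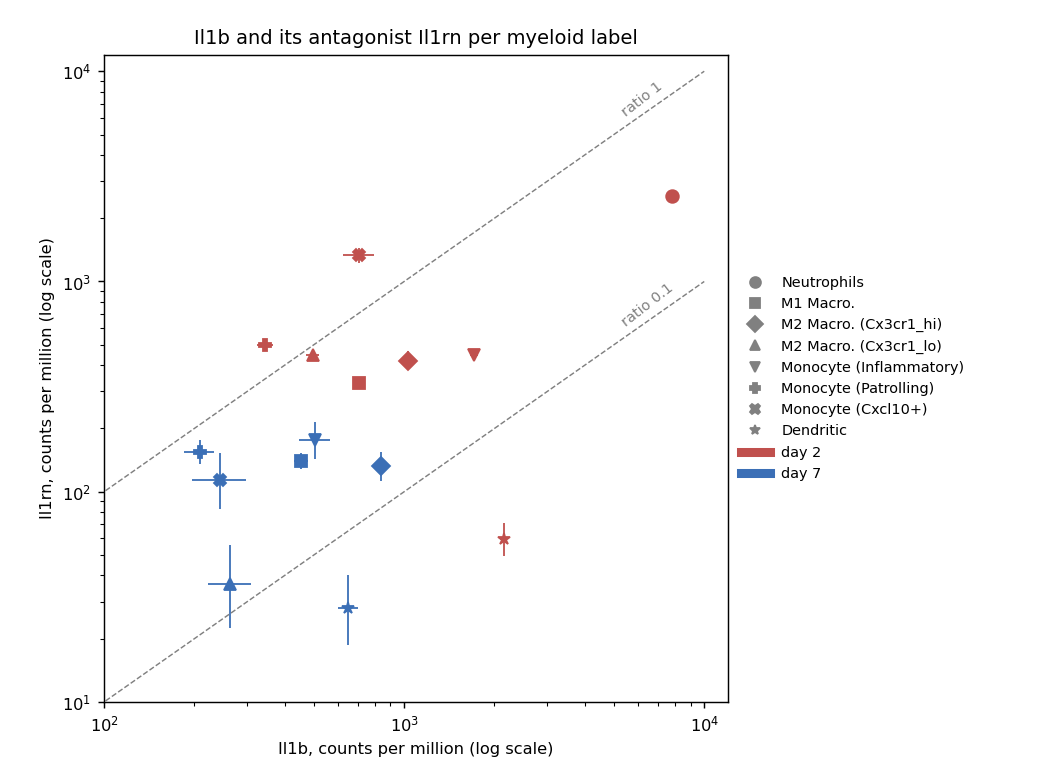
Il1rn level against Il1b level for each myeloid label at day 2 and day 7, both in CPM on log axes, with bars for the 95% counting intervals. Dendritic cells lie far below the other labels at day 2, with Il1b at 2145 CPM and Il1rn at 59.6 CPM, and Cxcl10+ and patrolling monocytes have more Il1rn than Il1b at day 2 and less at day 7.

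The receptors were split between cells. Il1r2, the decoy, was a neutrophil transcript at day 2, with 3529 of 4212 counts (83.8%) and a level of 1812 CPM [1753, 1873] (478 CPM in the 28 cells under stricter limits), found in 604 of 708 neutrophils. Those same cells held 3 counts of the signalling receptor Il1r1 in all, so the ratio of decoy to signalling receptor counts was 1176 [402, 5707]. Dendritic cells were second, at 141 CPM in 82 of 170 cells, and still at 121 CPM in the 158 dendritic cells with under 3 counts of neutrophil, basophil and mast markers, beside 89.1 CPM in free RNA, or 128 CPM [104, 154] when only barcodes with 1 to 10 counts were used for it. At day 7 they stood at 11.5 CPM (-3.61 [-4.58, -2.79]). Monocytes and macrophages went from 11.1 to 2.13 CPM (-2.38), both under free RNA, which stood at 4.63 CPM at day 7 (9.03 CPM from barcodes with 1 to 10 counts).

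With few cells under the neutrophil label at day 7, FAPs held most of the remaining Il1r2, 114 of 159 counts (71.7%). The FAP level was 27.7 CPM at day 2 and 14.0 CPM at day 7 (-0.98 [-1.35, -0.62]). Within FAPs the labels differed: Il1r2 went from 32.2 to 10.0 CPM in the pro-remodeling FAPs (-1.69 [-2.17, -1.22]), whereas the stem-labelled FAPs had 12.6 CPM [7.20, 20.5] at day 2 in 47 cells and 34.2 CPM [21.2, 52.4] at day 7 in 78 cells. The adipogenic FAPs had 36.5 CPM [19.4, 62.4] and 20.6 CPM [14.3, 28.9], with overlapping intervals, and 10.9 CPM at day 7 as a mean over cells.

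Il1r1, the receptor that transmits the signal, was a FAP transcript at both times. FAPs held 82.1% of its counts at day 2, when they were 6.77% of the classified cells, and 75.9% at day 7, when they were 25.2%. Their level was 249 CPM at day 2 and 99.9 CPM at day 7 (-1.32 [-1.45, -1.19]). It was found in 88.8% of FAPs at day 2 and 47.8% at day 7, and in 39.9% and 14.9% when cells were thinned to 2000 counts, since FAPs had medians of 24329 and 8429 counts per cell. None of 537 thinned neutrophils held a count of it, which allows up to 0.559% of cells with a count at that depth when 0 is set at 3 cells. At day 2 the pro-remodeling (281 CPM) and adipogenic (267 CPM) FAPs had overlapping intervals, above the stem-labelled FAPs (156 CPM). At day 7 the adipogenic FAPs stood highest at 193 CPM, and the pro-remodeling FAPs were at 76.9 CPM, for a log2 ratio of -1.87 [-2.03, -1.71]. As means over cells, the adipogenic FAPs stood at 209 CPM at day 2 and 144 CPM at day 7.

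Outside FAPs, Il1r1 was found in vascular cells. Endothelial cells went from 19.0 to 38.7 CPM, the opposite direction to FAPs (1.03 [0.46, 1.61]), beside 21.9 and 23.4 CPM in free RNA. Capillary cells had 21.8 and 30.4 CPM (0.48 [-0.35, 1.30]) and stem-labelled endothelial cells 8.88 and 23.7 CPM (1.41 [-0.08, 3.02]). Both of these intervals held 0. Endothelial cells labelled as vein had 21 of the 65 counts of the class at day 7, a level of 133 CPM [82.1, 203], and 11 counts in 7 of 12 cells at day 2. The ratio of the endothelial class sat on the 2-fold mark and fell just inside it, at 0.98, without the cell with the most counts and under stricter limits on cells. Smooth muscle cells had 34.5 CPM at day 2 and 36.2 CPM at day 7 (0.07 [-0.30, 0.43]). Muscle stem cells (MuSCs), the satellite cells of the regrowing fibre, had 18 counts at day 7, a level of 24.0 CPM [14.2, 37.9] close to the 23.4 CPM of free RNA.

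Il1rap, the co-receptor that both Il1r1 and Il1rl1 need, was the only member without a class that held over 50% of its counts at either time, although without limits on cells 1 class did at day 2. Neutrophils were again highest at day 2, at 280 CPM [257, 304] and in 40.7% of cells (34.8% after thinning, against 3.57% of thinned monocytes and macrophages). In the 28 neutrophils under stricter limits it stood at 62.4 CPM, beside 40.9 CPM in the next label, the inflammatory monocytes. FAPs went from 28.1 to 10.8 CPM (-1.38 [-1.78, -0.98]), monocytes and macrophages from 19.7 to 6.78 CPM (-1.54) and dendritic cells from 22.4 to 4.81 CPM (-2.22), while free RNA went from 21.6 to 4.23 CPM. At day 2, 83 of 215 FAPs held counts of both Il1r1 and Il1rap and 108 held Il1r1 without Il1rap. Smooth muscle cells did not show the same pattern, with 11.4 and 11.1 CPM. Neural cells were highest at day 7, at 74.6 CPM [42.6, 121] from 16 counts, and held 17 counts in 4 of 9 cells at day 2.

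**Figure D3:**
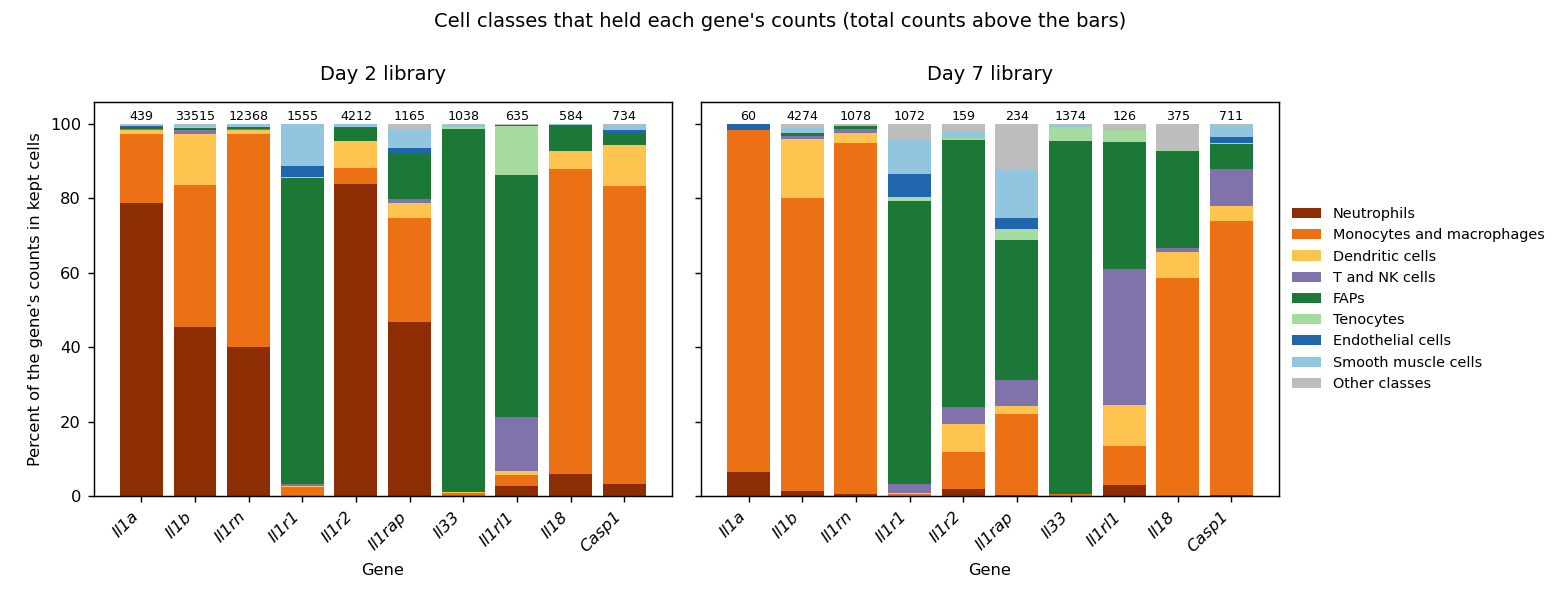
Share of each gene's counts that came from each class of cells at day 2 and day 7, as stacked bars in percent of the counts in classified cells. Il1a and Il1r2 counts come mostly from neutrophils at day 2 (78.8% and 83.8%), and Il33 counts almost wholly from FAPs at both times (97.3% and 94.8%).

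Il33 was nearly limited to 1 class. FAPs held 1010 of 1038 counts at day 2 (97.3% [96.1, 98.2]) and 1302 of 1374 at day 7 (94.8% [93.4, 95.9]). Their level differed little between the days, at 197 CPM and 160 CPM (-0.30 [-0.42, -0.18]), and after thinning the share of FAPs with Il33 was 22.1% and 22.4%, where no thinned neutrophil of day 2 held it. Behind this the labels went in different directions. Pro-remodeling FAPs had 212 CPM at day 2 and 138 CPM at day 7 (-0.62 [-0.76, -0.47]), whereas adipogenic FAPs had 118 CPM [85.0, 159] in 30 cells and 226 CPM [204, 250] in 232 cells. The adipogenic level was 82.1 CPM at day 2 without the cell with the most counts, and 163 CPM at day 7 as a mean over cells. Stem-labelled FAPs stood at 176 and 188 CPM, with overlapping intervals. Tenocytes, the tendon fibroblasts, came next at day 7 with 112 CPM [83.1, 148]. In FAPs, Il33 counts came to 0.791 of Il1r1 counts at day 2 and 1.60 of them at day 7.

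Il1rl1, the Il33 receptor, was also found in FAPs, at day 2. The FAP level was 80.3 CPM at day 2 and 5.28 CPM at day 7 (-3.93 [-4.42, -3.47]). It was uneven over cells: 237 of the 412 counts came from 20 of the 47 stem-labelled FAPs at day 2, and 94 of these from 1 cell, without which that label stood at 114 CPM rather than 187 CPM. At day 7 none of the 78 stem-labelled FAPs held a count, a limit of 4.89 CPM. The pro-remodeling FAPs went from 47.3 to 7.30 CPM (-2.70 [-3.22, -2.21]), with Il1rl1 in 29 of 138 and 15 of 495 cells. At day 2, 36 of 215 FAPs held counts of both Il33 and Il1rl1 and 15 held Il1rl1 alone, against 12 and 3 of 805 at day 7. None of the FAPs with Il1rl1 held 3 or more counts of basophil, mast, or T and NK markers at day 2. Of the type 2 innate lymphoid markers (Gata3, Il13, Il5, Rora and Areg), 3 or more counts were held by 8 of the 29 pro-remodeling FAPs with Il1rl1, which had 65 of its 166 counts, and by 2 of the 20 stem-labelled FAPs with it, which had 25 of 237. Of all pro-remodeling FAPs of day 2, 44 of 138 held as many. The 16 tenocytes of day 2 held a further 84 counts in 3 cells, 63 of them in 1.

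**Figure D4:**
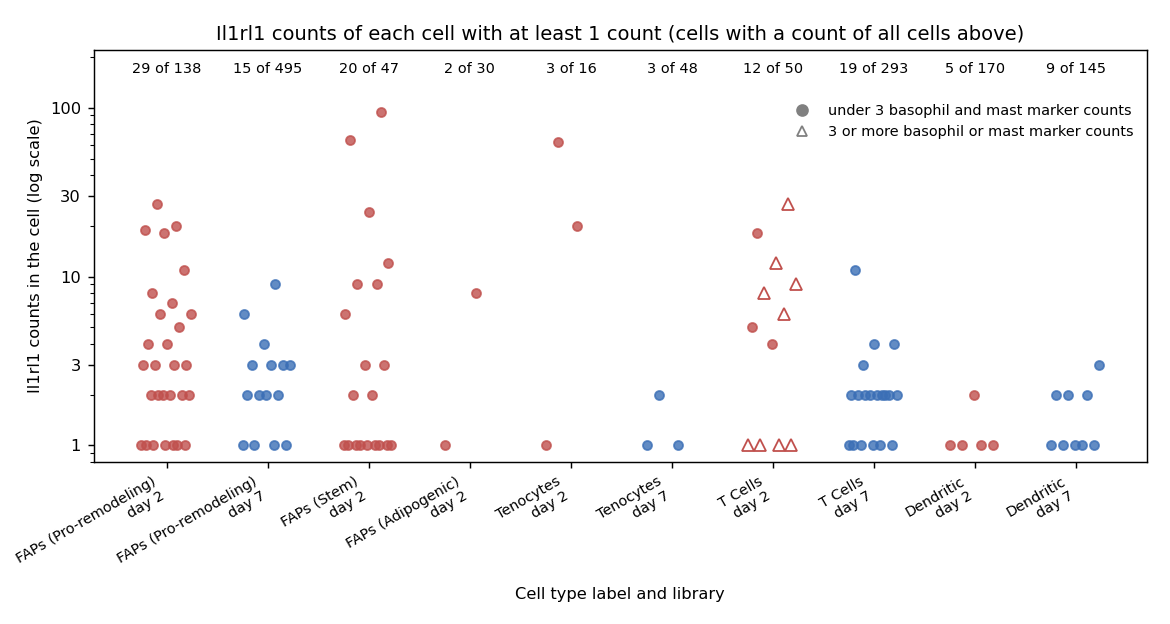
Counts of Il1rl1 in each cell of the FAP, tenocyte, T cell and dendritic labels that held at least 1, by label and day, on a log axis. Colour gives the day, and open triangles mark cells that held 3 or more basophil or mast cell marker counts. At day 2 the counts run up to 94 in a stem-labelled FAP, 63 in a tenocyte and 27 in a T-labelled cell, and at day 7 no plotted cell exceeds 11.

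The T cell label also held Il1rl1, with 93 counts in 12 of 50 cells at day 2 (341 CPM) and 46 counts in 19 of 293 cells at day 7 (28.3 CPM). At day 2, 66 of the 93 counts came from the 18 cells with 3 or more basophil or mast marker counts (763 CPM there), and the remaining 27 from 3 of the 30 cells with few counts of those or neutrophil markers (149 CPM [97.9, 216]). Of the 12 cells with Il1rl1 at day 2, 3 held 3 or more counts of the regulatory T cell markers Foxp3, Il2ra, Ikzf2 and Ctla4, and had 27 of the 93 counts, and 2 held as many of the type 2 innate lymphoid markers. Of all 50 T-labelled cells of day 2, 5 and 12 did. None of the 12 cells with Il1rl1 held 3 or more counts of the T and NK markers, and 10 of all 50 cells did. At day 7 none of the T-labelled cells with Il1rl1 reached 3 basophil or mast marker counts, 15 of the 19 held 3 or more counts of the regulatory T cell markers, and 17 of the 19 held as many of the type 2 innate lymphoid markers. Of all 293 T-labelled cells of day 7, 70 and 95 did. The T and NK markers reached 3 counts in 11 of the 19 and in 190 of the 293. Dendritic cells had 6 counts at day 2 and 14 at day 7 (2.27 [0.80, 3.94]), in 5 and 9 cells.

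Il18 and Casp1 belonged mainly to monocytes and macrophages, and neither was lower at day 7 there. Il18 stood at 29.0 CPM at day 2 and 29.3 CPM at day 7 in this class (0.01 [-0.22, 0.25]), which held 81.8% of its counts at day 2. Cxcl10+ monocytes were highest at day 2 with 98.8 CPM, and inflammatory monocytes went from 43.3 to 19.8 CPM (-1.13 [-2.17, -0.23]). FAPs held 26.1% of Il18 counts at day 7, when the stem-labelled FAPs stood at 55.4 CPM [38.4, 77.5], beside 23.6 CPM [15.9, 33.7] at day 2.

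Casp1 was higher at day 7 in monocytes and macrophages, at 35.7 and 69.5 CPM (0.96 [0.79, 1.14]), while Il1b, a precursor it cleaves, was lower. By label the log2 ratio was 1.31 in M2 Cx3cr1_lo macrophages, 1.29 in patrolling monocytes, 1.15 in M1 macrophages, 0.56 [0.02, 1.07] in inflammatory monocytes and 0.33 [-0.25, 0.93] in M2 Cx3cr1_hi macrophages. The last pair are the labels of this class in which Il1b differed most and least. Dendritic cells had 37.7 and 27.9 CPM (-0.43 [-1.10, 0.19]). In T and NK cells Casp1 had no count at day 2 and 71 counts at day 7 (33.5 CPM), at least 4.06-fold higher when day 2 is set at 3 counts. The cells under the T label differed too, with 3 or more T and NK marker counts in 10 of 50 at day 2 and 190 of 293 at day 7. Free RNA held Casp1 at 11.1 CPM at day 2 and 20.7 CPM at day 7. Neutrophils, with the highest Il1b, had only 24 Casp1 counts, 12.3 CPM beside 11.1 CPM in free RNA.

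Counted over classes, the members lay mostly on the lower side at day 7. In monocytes and macrophages 9 members had at least 20 counts, of which 3 (Il1rn, Il1r2 and Il1rap) were past 2-fold lower, none was past 2-fold higher and 6 lay within. Of all 11318 genes with as many counts in this class, 32.2% were past 2-fold in either direction, 19.3% higher and 12.8% lower, with a median log2 ratio of -0.02 against -0.80 for the members. In FAPs 5 of 9 members were past 2-fold lower (Il1b, Il1rn, Il1r1, Il1rap and Il1rl1) and none higher, where 39.5% of all genes were past 2-fold, 25.6% higher and 14% lower, and the medians were -1.32 for members and 0.21 for all genes. In this count Il1b and Il1rn are the transcripts that FAPs held at low levels beside abundant free RNA. Endothelial cells had 3 of 4 members past 2-fold (Il1r1 higher, Il1b and Il1rn lower), where 24.4% of all genes were, 14.9% higher and 9.5% lower.

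The other 3 classes with enough cells were dendritic, T and NK, and smooth muscle cells. In dendritic cells 5 of 7 members were past 2-fold (Il1rl1 higher, and Il1b, Il1rn, Il1r2 and Il1rap lower), against 22.1% of all genes, 13.6% higher and 8.44% lower. With SoupX values 3 of 6 were, since Il1rl1 fell under 20 counts and Il1rn stood at -0.91. In T and NK cells 5 of 6 were (Casp1 higher, and Il1b, Il1rn, Il1rap and Il1rl1 lower), against 18.2%, 9.98% higher and 8.22% lower, with the cells carrying basophil and mast markers among them at day 2. Those cells held most of the Il1b and Il1rl1 counts of the T cell label at day 2, as given above. Without the cells holding 3 or more neutrophil marker counts, those with basophil and mast markers kept in, the Il1rn ratio in T and NK cells was -0.96 rather than -4.30, and under stricter limits on cells the Il1rap ratio was -0.96 rather than -2.13. In smooth muscle cells 3 of 6 were (Casp1 higher, from 10 and 24 counts, and Il1rn and Il1r2 lower), against 21.9%, 14.1% higher and 7.86% lower. The Il1r2 ratio there rested on 35 and 3 counts and was -0.55 without the cells holding neutrophil, basophil or mast markers, and among the 4 members with at least 50 counts 1 was past 2-fold.

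**Figure D5:**
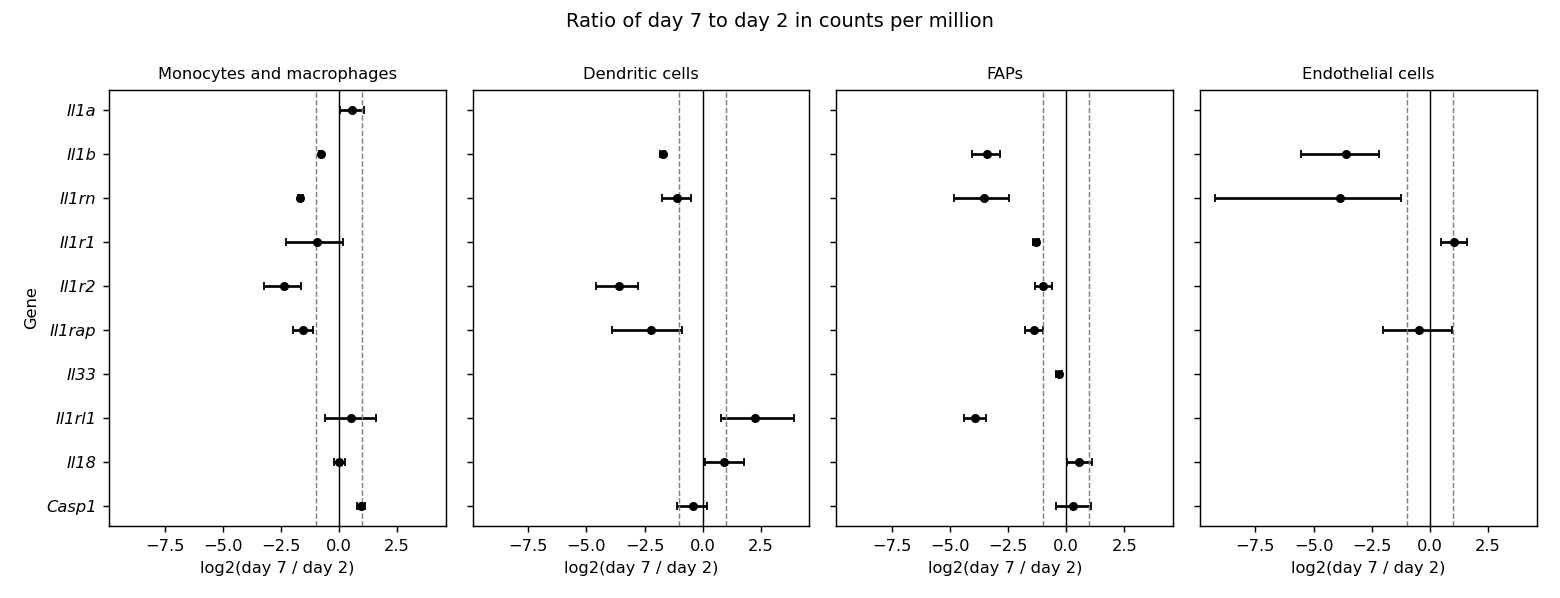
Log2 ratio of day 7 to day 2 for each member with at least 20 counts in a class, with 95% counting intervals and dashed lines at 2-fold. The classes shown are monocytes and macrophages, dendritic cells, FAPs and endothelial cells. Most points lie left of 0, with Il1rl1 in FAPs at -3.93. Among those to the right are Il1rl1 in dendritic cells (2.27), Casp1 in monocytes and macrophages (0.96) and Il1r1 in endothelial cells (1.03).

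Among 15 inflammasome and pyroptosis genes with enough counts in monocytes and macrophages, 4 were past 2-fold higher at day 7, 1 lower and 10 within, close to the 32.2% of all genes past 2-fold in that class. The sensor Nlrp3 was lowest, going from 182 to 44.1 CPM (-2.05 [-2.22, -1.88]), and Txnip, known to bind it, was highest, going from 34.9 to 212 CPM (2.60). The adaptor Pycard stood at -0.83 and Gsdmd, which forms the pore of pyroptosis, at 0.41. Of 12 adaptors and kinases 10 lay within 2-fold in this class, Myd88 at -0.61 and the inhibitory kinase Irak3 at 0.05 among them. Tab1 was past 2-fold higher (1.72) and Tollip past 2-fold lower (-1.25).

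The other receptors and binding proteins had few counts, with 5 of 11 genes in the files reaching 20 counts in monocytes and macrophages. Il18bp, the soluble antagonist of Il18, went from 10.5 to 136 CPM in that class (3.70 [3.46, 3.94]) while Il18 itself stayed at about 29 CPM, and Il18rap was lowest at -3.89. The Il18 receptor chain Il18r1 was found mainly in T and NK cells, at 82.6 and 103 CPM (0.32 [-0.24, 0.92]).

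Among 11 genes of the NF-kappaB response, 6 were past 2-fold lower at day 7 in FAPs, none was higher and 5 lay within, where 14% of all genes were lower and 25.6% higher. Nfkb1 was lowest, going from 806 to 133 CPM (-2.60 [-2.70, -2.50]), followed by Nfkbia from 720 to 176 CPM (-2.03), beside Il1r1 at -1.32 in the same cells. Rela was nearest to no difference (-0.07) and Nfkbiz stood at -0.30. In T and NK cells 4 of the 11 were past 2-fold lower and none higher, where 8.22% of all genes were lower. Cells with basophil and mast markers were part of that class at day 2, as given above. In endothelial, dendritic and smooth muscle cells all 11 lay within 2-fold, and in monocytes and macrophages 10 did, with Nfkbiz just past it, at 66.1 and 132 CPM. Proteases that can process the ligands in place of Casp1 gave 4 of 5 past 2-fold lower in monocytes and macrophages, where 12.8% of all genes were, with Capn1 within (0.13). The protease list includes Cma1 and Mcpt4, which also served as mast cell markers. Mast cell markers stood at 14.1 CPM in this class at day 2.

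Levels over the 41 groups of label and library with at least 20 cells and 50000 counts were compared as Pearson r of log2(CPM + 1), a description of groups that share 2 libraries and differ in depth. Il1b and Il1rn followed one another most closely of the member pairs (r = 0.88), then Il1a and Il1b (0.73), Il1r1 and Il33 (0.71) and Il18 and Casp1 (0.69), and Il33 with Il1rl1 gave 0.43. Among 9214 genes, those most like Il1b were Nlrp3 (0.93), Alox5ap (0.93) and Ccl6 (0.91), and those most like Il1rn were Osm (0.95), Itgam (0.95) and Cd300lf (0.94). Those most like Il33 were Osr1 (0.93), Tmem45a (0.91) and Ms4a4d (0.90), and Osmr was most like Il1r1 (0.89). For Il1r2 the highest was Ptgs2 (0.76), for Il1a Csf3r (0.84), for Il18 Rab7b (0.87) and for Casp1 Slfn8 (0.88). The highest values were lower for Il1rap (Selk, 0.75) and Il1rl1 (Gm12840, 0.68).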

How the data were processed

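The series held 2 single-cell libraries (3′ droplet kit) from tibialis anterior muscle, 1 at day 2 and 1 at day 7. Per the labels, the authors aligned reads to mm10 with Cell Ranger 3.1.0 and used Seurat 3.1.5; their methods also describe SoupX, for free RNA, and DoubletFinder. The deposited matrices held UMI counts (whole numbers for each gene in each barcode), used here as the main values, and the authors' SoupX matrices held estimated counts, used as an alternative. Cell types came from the authors' deposited tables, and no doublet caller was run.

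Counts were summed per label or class and library (Python 3.11.15, numpy 2.4.6, scipy 1.17.1, pandas 2.3.3, figures with matplotlib 3.10.9). Intervals were exact: Poisson for CPM, conditional binomial for ratios and Clopper-Pearson for shares. With 1 library a group there was no test. A ratio was counted past 2-fold in classes with at least 50 cells in both libraries, for genes with at least 20 counts over both, and a count of 0 was set at 3. Limits on cells were applied to genes, transcripts and mitochondrial shares computed from the SoupX matrices, and removed 329 and 195 barcodes. A further 30 and 25 kept cells had no label and 4 barcodes were shared by both filtered matrices, 1 of them among annotated cells. The day 2 library held 41123913 counts and the day 7 library 32356088.

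All 10 members were described in every label, and the 3 genes most like a member were taken by Pearson r. Of other pathway genes, the text names the highest or lowest of a list and a few set by name, and Rela, Capn1 and Nfkbia in FAPs were picked after their values were seen. The members and lists were chosen with earlier results of these data known. Alternatives were SoupX values, other cell limits, other scalings, free RNA from barcodes with 1 to 10 counts, leaving out cells with another type's markers and, added after seeing the data, leaving out the cell with the most counts. Scripts were tested on simulated data. Promoters of 10 of 10 members, 15 in all, matched in RefSeq's table, and gene positions came from GENCODE.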

Additional observations from a re-analysis of the deposited data

Results flagged for a closer look

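Il1r1 differed between the days in opposite directions in 2 classes, with a log2 ratio of day 7 to day 2 of 1.03 in endothelial cells and -1.32 in FAPs. By label, the intervals of capillary (0.48 [-0.35, 1.30]) and stem-labelled endothelial cells (1.41 [-0.08, 3.02]) held 0. Il1rl1 also differed in opposite directions, higher at day 7 in dendritic cells (2.27, from 6 and 14 counts) and lower in T and NK cells (-3.56) and FAPs (-3.93). In the T cell label 66 of its 93 counts at day 2 came from cells with 3 or more basophil or mast marker counts, and the cells with few counts of those or neutrophil markers stood at 149 CPM rather than 341 CPM. With 1 library a day, the difference between classes was not tested.

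Counts of the 10 members were also found in barcodes that entered no comparison. At day 2, 680 barcodes met the limits on cells without being in the deposited table, and held 6208 counts of the members (1086 CPM), of which 3464 were Il1b, 341 Il33 and 270 Il1rl1. At day 7, 477 such barcodes held 791 counts (244 CPM). The cells without a label held 247 counts in 30 barcodes at day 2 (1455 CPM, with 150 of the counts from Il1rn) and 39 counts in 25 barcodes at day 7 (494 CPM). What these barcodes are was not tested.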

How the results depend on the processing

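The members past 2-fold numbered 3 to 4 in monocytes and macrophages, 5 to 6 in FAPs, 2 to 3 in endothelial cells and 4 to 6 in T and NK cells over the alternatives. In dendritic cells they numbered 3 (SoupX values) to 5, and in smooth muscle cells 3, or 1 with at least 50 counts. The members with over 50% of their counts in 1 class numbered 8 to 10 at day 2 and 8 at day 7. Of 41 log2 ratios, 1 whose interval excluded 0 changed sign: Il1b in smooth muscle cells was 0.63 as a mean over cells, where the main value was -0.70, and -0.02 with SoupX values, -2.92 without cells holding neutrophil, basophil or mast markers and -3.66 without the cell with the most counts. Ratios whose intervals held 0 changed sign 5 times: Casp1 in FAPs (-0.10) and Il18 in monocytes and macrophages (-0.22) as means over cells, Il1r1 in smooth muscle cells with median-of-ratios scaling (-0.04) and without marker-holding cells (-0.17), and Il1rap there with SoupX values (0.03). Other values that moved beyond their intervals were, as a mean over cells, Il1b (-0.93), Il1rn (-1.83), Il1rl1 (1.73, against 0.51) and Casp1 (0.67) in monocytes and macrophages, and, under stricter limits on cells, Il1b (-4.80) and Casp1 (1.33) in T and NK cells. With SoupX values Il1b in FAPs was -5.15 and Il1rn in smooth muscle cells -2.79, and without the marker-holding cells they were -2.81 and -2.72, Il1r2 in smooth muscle cells -0.55, Il1rn in dendritic cells -0.96 and Il1rn in T and NK cells -0.96, where only neutrophil markers were used. The cause was not tested. Il1rl1 in monocytes and macrophages rested on 1 cell, at 1.55 without it. Il1r1 in endothelial cells was 0.96 with median-of-ratios scaling, which moved the median of all genes by 0.11 in smooth muscle cells, by -0.13 in T and NK cells and by under 0.1 elsewhere. Il1rap in T and NK cells was -0.96 under stricter limits, and Il1r2 in FAPs passed 2-fold, at -1.06 to -1.16, under 3 alternatives, as did Il1r1 in monocytes and macrophages at -1.06 to -1.45. As a mean over cells Il1r1 in T and NK cells was -1.35. Only 28 of 708 neutrophils passed the stricter limits, with the lower levels given above. Of 20 free RNA levels, 10 moved beyond their intervals when only barcodes with 1 to 10 counts were used. The filter on basophil and mast markers also removed 98 smooth muscle cells at day 2, a class in which 2 of the 6 basophil and 1 of the 5 mast markers had counts. Leaving out a replicate was not possible with 1 library a day. No paired analysis was possible because each day has 1 library and nothing was tested.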
